A study of Homo sapiens with 16 samples.

Results

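The 44 genes described here encode kinesins, the motor proteins that walk along or take apart microtubules, and centromere proteins of the CENP series. They were chosen by symbol and by measured level: a gene symbol had to begin with KIF or CENP followed by a digit or a capital letter, and its mean over all 16 libraries had to reach an FPKM of 1 (fragments scaled by transcript length and by library size). Of 25270 genes in the matrix, 66 had such a symbol. Left out were 2 antisense symbols with a hyphen, 3 pseudogenes and 17 genes whose mean was below 1. The 44 that remained were 26 kinesin and 18 CENP symbols, among 10600 genes of the whole matrix that reached the same mean. The level that chose them is no finding and was not tested.

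The RNA came from U2OS, an established human osteosarcoma line used here as 1 line with no other genotype. Dishes were treated for 6 h with CPT, T4 or T5 at 0.5, 2, 5, 10 or 20 µM, or with DMSO, the solvent control. Each of these 16 conditions had 1 library. The series' text calls T4 and T5 APA modulators, and the labels spell out none of these codes. No condition was repeated. The p-values therefore describe only how far single libraries stray from a straight dose line or from a constant offset between compounds, and that scatter could be technical, as the labels do not state that dishes were independent cultures.

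Kinesins share a motor domain that hydrolyses ATP and binds microtubules. One set works in cell division, where it separates the spindle poles, moves and aligns chromosomes, shortens microtubule ends and builds the midzone for cytokinesis, and another carries vesicles, organelles and RNA. The centromere is marked by nucleosomes that hold CENPA, a variant of histone H3, on which the constitutive centromere-associated network of CENP subunits assembles, and the outer kinetochore that grips spindle microtubules is built on that network. In dividing cells, many genes of the spindle and kinetochore are transcribed late in the cell cycle, partly through promoter elements called the CHR (cell cycle genes homology region) and CCAAT boxes.

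Of 8 marker genes of mesenchymal and bone cells, 6 reached an FPKM of 1 in at least 1 library, with DMSO values of 358 for VIM, 301 for COL1A1 and 227 for SPARC, while COL1A2 stayed at or below 0.134 and BGLAP at or below 0.0756. Of 6 markers of epithelium, blood, red cells and liver, EPCAM alone reached 1, between 1.29 and 2.31, and the summed FPKM of the 6 lay between 1.48 and 2.49. FPKM summed to 238669 with DMSO, the lowest of the 16 libraries, and to 285143 in the highest. Depth relative to DMSO, estimated from the steps of low values, was 0.639 to 0.997 in treated libraries, and its part in the results was not tested. The median log2(FPKM + 1) over the 10600 genes was 3.28 with DMSO and 2.65 with 20 µM T5, and over all genes the median fitted change from 0 to 20 µM was -0.14 with CPT, -0.27 with T4 and -0.29 with T5. Setting the medians of the libraries equal moved these to 0.31, 0.38 and 0.38, so the direction of a small change depends on the scaling.

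Some of the 44 genes cannot be fully told apart from others. In GENCODE 29, 14 of them share exonic sequence with a gene on the opposite strand (CENPN, CENPO, CENPP, CENPT, CENPU, KIF18A, KIF1C, KIF20A, KIF22, KIF23, KIF2C, KIF7, KIFC2 and KIFC3), and whether the libraries kept the strand is not given in the sources used here. KIF4A has a near-identical intronless copy, KIF4B, listed at an FPKM of at most 0.0618 here, so reads may be split between them. KIFC1 and KIF2B were listed at 0 in every library. KIFC1 is a spindle kinesin that dividing cells use, so its 0 may be a failed estimate and no level is read from it.

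Many of the division genes lost most of their RNA signal within 6 h. On log2(FPKM + 1), the fitted line from 0 to 20 µM fell past the threshold (limma, Benjamini-Hochberg adjusted p below 0.05 over 10600 genes) for 22 of the 44 genes with CPT, 19 with T4 and 23 with T5, and it rose for 2, 2 and 3. Over all 10600 genes tested, 25.8% fell and 17.9% rose with CPT, 32.4% fell and 14.5% rose with T4, and 34.5% fell and 18.2% rose with T5. The median change of the 44 genes was -0.89 with CPT, -0.66 with T4 and -0.80 with T5, beside the medians over all genes above. In bulk RNA, fewer cells in a cycle stage and less RNA per cell cannot be told apart. The 3 dose lines share the DMSO library, so counts in them are not independent of each other.

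These counts had limits. With medians set equal, 15 of the 44 genes fell and 3 rose with CPT, 13 fell and 10 rose with T4, and 15 fell and 11 rose with T5. Over the 10600 genes in those fits, 1643 fell and 3572 rose with CPT, 1847 fell and 4293 rose with T4, and 1992 fell and 4388 rose with T5. For CPT, 22 genes fell in the fit of all 6 libraries, but 0 did without the 10 µM library, 13 without 0.5 µM and 14 without 5 µM, and 0 fell on a linear dose scale. Over all 10600 genes, 0 fell and 1 rose without the 10 µM CPT library, and all 24 of the 44 genes called with CPT kept the sign of their change in each of those fits. None of those 24 kept its call without the 10 µM library. On the linear scale 11 of the 44 genes fell with T4 and 2 with T5, beside 1328 and 545 of the 10600.

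Single libraries, compared with DMSO as ratios without a test, give the course over dose. At 0.5 µM CPT, 10 of the 44 genes were already at least 2-fold below DMSO in FPKM + 1, against 6.81% of all genes tested. At 20 µM CPT there were 21, against 21% of all genes. At 0.5 µM T4 there were 0 of the 44 and 1.03% of all genes, and at 20 µM T4 there were 15, against 22.9%. With T5 the number went from 5 at 0.5 µM (4.41% of all genes) to 20 at 20 µM (26.5%). With CPT the number was 20 at 2 µM, beside 17.6% of all genes, and between 21 and 22 above it, beside 21.0% to 21.3%. It changed little above 2 µM, as the share of all genes changed little from 5 µM up.

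**Figure D1:**
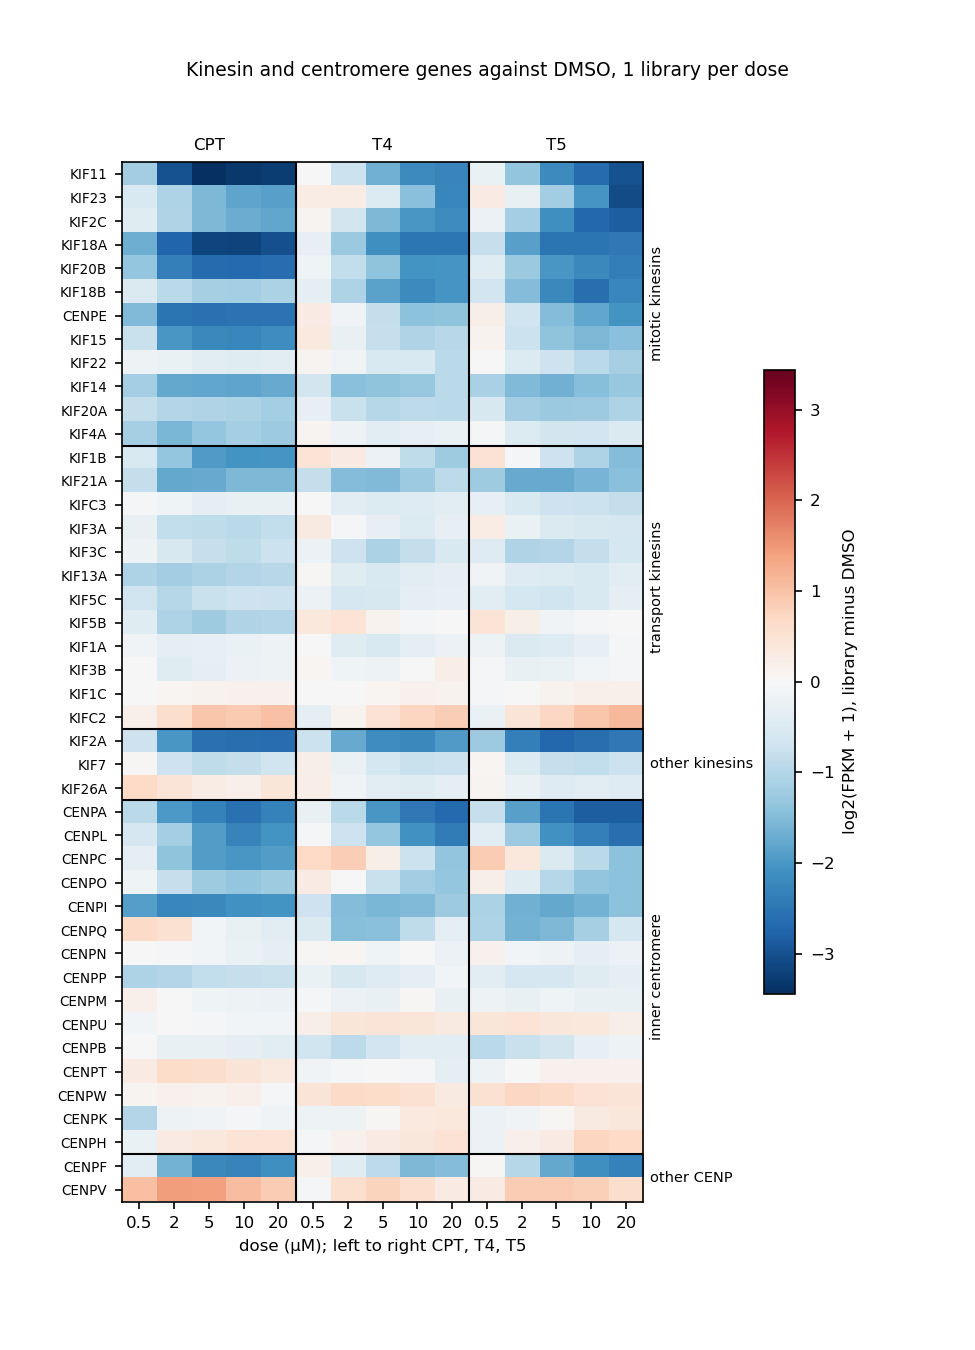
Heat map of all 44 genes (rows, grouped by role) in the 15 treated libraries (columns, doses in µM within each compound), coloured by log2 of (FPKM + 1) over (DMSO FPKM + 1), with blue below DMSO and red above. The block of spindle kinesins is the most evenly blue, with KIF11 lowest, while many inner centromere genes stay near white.

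The 12 kinesins of the spindle and midzone (11 KIF genes and CENPE) had the largest median fall of the 5 role groups. Of the 12, 10 fell with CPT, 10 with T4 and 11 with T5, and 0 rose. Over all genes tested, 25.8%, 32.4% and 34.5% fell and 17.9%, 14.5% and 18.2% rose. Their median log2 change was -1.91 with CPT, -2.05 with T4 and -2.47 with T5. With medians set equal, 8, 8 and 9 of the 12 fell and the medians were -1.46, -1.41 and -1.80, and with quantile normalization 7, 8 and 9 fell. Counts over all genes with medians set equal are given above, and those with quantile normalization are not given here.

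KIF11, also called Eg5, pushes antiparallel microtubules apart and so makes the spindle bipolar. Its FPKM, given here and below in order of dose from 0.5 to 20 µM, was 27.9 with DMSO, 11.6, 2.61, 1.66, 1.92 and 2.003 with CPT, 28.0, 16.2, 8.28, 5.31 and 5.03 with T4, and 23.6, 10.3, 5.32, 3.59 and 2.59 with T5. Every CPT library lay below DMSO, at 41.7% of it at 0.5 µM and 9.37% at 2 µM. With T4 and T5 the lowest dose was close to DMSO, and the level then stepped down at each dose. The fitted log2 change was -3.33 ± 0.71 (SE, n = 6 libraries, adjusted p = 0.0154) with CPT, -2.66 ± 0.27 (adjusted p = 0.00126) with T4 and -3.28 ± 0.23 (adjusted p = 0.000869) with T5.

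KIF18A sits at the plus ends of kinetochore microtubules and damps chromosome oscillations. Its FPKM was 11.95 with DMSO, 3.02, 0.945, 0.458, 0.415 and 0.607 with CPT, 9.60, 4.37, 2.004, 1.32 and 1.29 with T4, and 6.41, 2.52, 1.27, 1.28 and 1.35 with T5. At 0.5 µM it was at 25.3% of DMSO with CPT, 53.7% with T5 and 80.3% with T4. From 0 to 20 µM the fitted log2 change was -2.87 ± 0.66 with CPT, -2.83 ± 0.29 with T4 and -2.59 ± 0.44 with T5, with adjusted p of 0.0183, 0.00132 and 0.00423.

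KIF20B acts late in division, in the completion of cytokinesis. It read an FPKM of 10.6 with DMSO, 3.65, 1.27, 0.843, 0.821 and 0.905 with CPT, 9.51, 5.51, 3.48, 1.78 and 1.85 with T4, and 7.77, 3.78, 1.92, 1.504 and 1.22 with T5. All 15 treated libraries were below DMSO, and CPT was the lowest of the 3 compounds at each dose. Its fitted log2 change was -2.50 ± 0.55, -2.32 ± 0.25 and -2.57 ± 0.25 with CPT, T4 and T5 (adjusted p = 0.0168, 0.00144 and 0.00117).

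CENPE is a very large kinesin that tethers kinetochores to microtubules and brings chromosomes to the spindle equator. Its FPKM was 8.49 with DMSO, 2.30, 0.672, 0.607, 0.641 and 0.638 with CPT, 10.5, 7.75, 4.40, 2.59 and 2.61 with T4, and 9.94, 4.95, 2.37, 1.77 and 1.28 with T5. The lowest dose of T4 and of T5 was above DMSO, whereas the lowest dose of CPT was already well below it. The fitted log2 changes were -2.26 ± 0.61 (adjusted p = 0.028), -1.79 ± 0.33 (0.00597) and -2.41 ± 0.30 (0.00183).

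KIF23 and KIF2C each fell more with T5 than with CPT or T4. KIF23 is the motor of centralspindlin, the complex that bundles midzone microtubules, and had the highest mean of the spindle kinesins. Its FPKM was 49.8 with DMSO, 34.2, 23.2, 16.5, 13.6 and 12.9 with CPT, 59.9, 59.8, 35.6, 17.7 and 9.77 with T4, and 61.3, 42.0, 21.3, 11.5 and 4.98 with T5. The libraries of 0.5 and 2 µM T4 and of 0.5 µM T5 lay above DMSO, and values below DMSO began at 5 µM with T4 and 2 µM with T5. Its log2 change was -1.93 ± 0.18 with CPT, -2.34 ± 0.52 with T4 and -3.24 ± 0.49 with T5 (adjusted p = 0.0105, 0.0119 and 0.00298). KIF2C, or MCAK, takes apart microtubule ends at centromeres. It read 46.5 with DMSO, 34.4, 22.2, 15.2, 13.5 and 12.8 with CPT, 49.5, 29.7, 15.2, 10.9 and 9.51 with T4, and 40.6, 20.02, 10.1, 6.31 and 5.65 with T5. At 10 and 20 µM both T4 and T5 lay below CPT, while at 0.5 µM both lay above it. The log2 change was -1.89 ± 0.20, -2.55 ± 0.26 and -3.20 ± 0.24 (adjusted p = 0.0105, 0.00128 and 0.00093).

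The other 6 spindle kinesins differed in how far they fell and with which compounds. KIF15, which can stand in for KIF11, fell with all 3 compounds, with log2 changes from -1.35 (T4) to -2.20 (CPT). KIF18B, a partner of KIF2C at astral microtubule ends, fell with changes of -1.10, -2.34 and -2.53 with CPT, T4 and T5. KIF20A, which carries the chromosomal passenger complex to the midzone, fell with changes of -0.96, -0.97 and -1.09. KIF22, a chromosome-arm motor, fell with T4 (-0.97) and T5 (-1.23), and its change with CPT was -0.37 (adjusted p = 0.0508). KIF14, a kinesin of cytokinesis, passed with CPT alone (-1.52, adjusted p = 0.0389), and its T4 and T5 lines had adjusted p of 0.113 and 0.0941. It was nonetheless at or below 58.4% of DMSO in each T4 library and 36.6% in each T5 library. KIF4A, of chromosome arms and midzone, passed with T5 alone (-0.64), and that sign turned to 0.03 with medians set equal. Its CPT line did not pass (-0.87, adjusted p = 0.179), yet its CPT level was below T4 and T5 at each dose. The CPT libraries lay between 30.1% and 42.5% of DMSO, low from the first dose on.

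**Figure D2:**
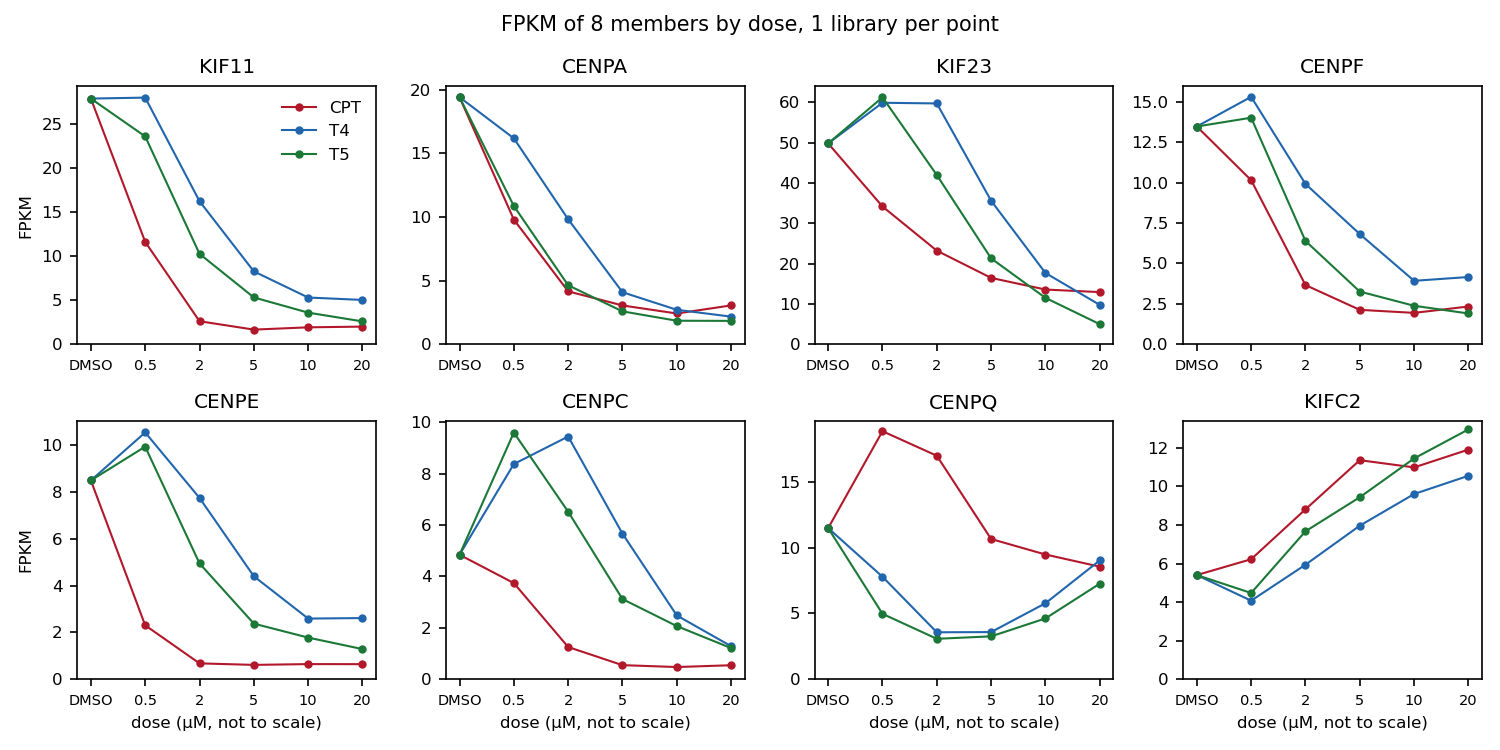
FPKM (y axis) of named genes against dose in µM (x axis, evenly spaced steps with DMSO at 0), with 1 line per compound and 1 point per library. KIF11, CENPA, KIF23, CENPF, CENPE and CENPC lie below DMSO at 20 µM with all 3 compounds. CENPQ is lowest at 2 and 5 µM with T4 and T5, and KIFC2 is highest at 20 µM with each compound.

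Promoter sequences of 4 falling genes that hold both motifs named above are shown as examples of where the motifs lie. KIF23 and CENPF are among the other genes that hold both, while the windows of CENPE, KIF2A and KIF2C, which fell too, hold neither. RefSeq windows (GRCh38.p14) from 250 bases before to 50 bases after the start were found for 39 of the 44 genes. Searched on both strands were TTTGAA, the letters of the CHR, and CCAAT, and no match of one overlapped a match of the other in the 4 windows. Capitals mark the matches, where TTCAAA and ATTGG are the reverse strand forms, and each sequence reads 5′ to 3′ along the strand of its gene.
CENPA promoter, chr2:26785806-26786105, plus strand: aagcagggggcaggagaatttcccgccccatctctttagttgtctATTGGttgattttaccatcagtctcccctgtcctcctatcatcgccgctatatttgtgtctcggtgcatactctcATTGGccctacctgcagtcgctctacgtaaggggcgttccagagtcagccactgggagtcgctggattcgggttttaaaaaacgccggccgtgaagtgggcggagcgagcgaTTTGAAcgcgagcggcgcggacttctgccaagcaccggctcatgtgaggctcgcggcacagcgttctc
KIF11 promoter, chr10:92592880-92593179, plus strand: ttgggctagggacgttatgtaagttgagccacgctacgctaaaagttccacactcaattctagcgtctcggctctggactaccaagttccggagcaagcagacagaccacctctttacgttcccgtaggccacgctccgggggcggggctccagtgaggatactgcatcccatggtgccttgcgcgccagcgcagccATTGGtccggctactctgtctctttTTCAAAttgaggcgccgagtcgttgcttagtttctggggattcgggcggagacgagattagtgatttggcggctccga
KIF18A promoter, chr11:28108107-28108406, minus strand: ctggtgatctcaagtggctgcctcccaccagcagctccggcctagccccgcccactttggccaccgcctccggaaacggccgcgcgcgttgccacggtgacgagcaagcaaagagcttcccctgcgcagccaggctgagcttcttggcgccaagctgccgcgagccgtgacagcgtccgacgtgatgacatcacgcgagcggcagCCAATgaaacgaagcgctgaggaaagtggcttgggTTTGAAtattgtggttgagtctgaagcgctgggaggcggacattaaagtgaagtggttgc
KIF20B promoter, chr10:89701340-89701639, plus strand: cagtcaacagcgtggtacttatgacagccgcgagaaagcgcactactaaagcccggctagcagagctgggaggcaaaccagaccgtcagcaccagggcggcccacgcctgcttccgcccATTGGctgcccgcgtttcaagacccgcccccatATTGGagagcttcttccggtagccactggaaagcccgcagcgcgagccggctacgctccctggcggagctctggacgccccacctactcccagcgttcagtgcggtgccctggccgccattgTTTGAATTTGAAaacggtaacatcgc

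The CHR letters begin 18 bases before the start in CENPA, 28 before it in KIF11 and 10 before it in KIF18A, and in KIF20B they occur in tandem, 24 and 30 bases after it. TTTGAA was present in 15.2% of all 34943 promoter windows, in 14 of the 39 windows of these genes (35.9%), in 8 of 12 spindle kinesins (66.7%), in 4 of 12 inner centromere genes (33.3%) and in 1 of 10 transport kinesins (10.0%). In all 8 spindle kinesins it began within 60 bases of the start. CCAAT was in 34.6% of all windows, in 20 of the 39 and in 9 of the 12 spindle kinesins, and both motifs together were in 5.92% of all windows and in 7 of the 12. A match of letters is a description and was not tested as a site.

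Counts of falling inner centromere genes were near those over all genes. Of 15 subunits, 4 fell and 1 rose with CPT, 4 fell and 1 rose with T4, and 5 fell and 2 rose with T5, against 25.8%, 32.4% and 34.5% of all genes that fell and 17.9%, 14.5% and 18.2% that rose. Their median log2 changes were -0.40, -0.17 and -0.28. With medians set equal, those medians turned to 0.06, 0.48 and 0.40, and 4 fell and 1 rose with CPT, 3 fell and 6 rose with T4, and 3 fell and 6 rose with T5, so the direction of the list as a whole depends on the scaling.

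CENPA, the histone of centromeric nucleosomes, fell with each compound. It read an FPKM of 19.4 with DMSO, 9.79, 4.16, 3.05, 2.42 and 3.05 with CPT, 16.2, 9.82, 4.09, 2.71 and 2.17 with T4, and 10.9, 4.63, 2.58, 1.85 and 1.84 with T5. Each treated library was below DMSO, and T5 was lower than T4 at each of the 5 doses. CENPA had a log2 change of -2.44 ± 0.46 (adjusted p = 0.0129) with CPT, -2.99 ± 0.26 (0.00121) with T4 and -3.00 ± 0.35 (0.00159) with T5. CENPL, which binds with CENPN to CENPA nucleosomes, read 10.3 with DMSO, 6.56, 4.04, 2.004, 1.32 and 1.71 with CPT, 9.90, 5.95, 3.48, 1.66 and 1.15 with T4, and 7.86, 3.74, 1.70, 1.20 and 0.887 with T5. Its level was lower at each dose through 10 µM with each compound, and the log2 change was -2.30 ± 0.31, -2.63 ± 0.26 and -2.80 ± 0.24 (adjusted p = 0.0105, 0.00124 and 0.00103). The change of its partner CENPN was -0.34, -0.20 and -0.37, called with T5 alone, and turned positive there with medians set equal. CENPO, of the subcomplex with CENPP, CENPQ and CENPU, fell with changes of -1.44, -1.65 and -1.76.

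CENPC, the scaffold that links CENPA nucleosomes to the outer kinetochore, ran differently with CPT than with T4 and T5. Its FPKM was 4.84 with DMSO, 3.74, 1.249, 0.542, 0.469 and 0.539 with CPT, 8.37, 9.45, 5.66, 2.48 and 1.28 with T4, and 9.60, 6.52, 3.12, 2.06 and 1.21 with T5. With T4 it read above DMSO through 5 µM and with T5 through 2 µM, and at 20 µM both were far below it, while each CPT library was below DMSO. The log2 change was -2.19 ± 0.35 with CPT (adjusted p = 0.0105), -1.59 ± 0.63 with T4 (0.0761, not called) and -1.85 ± 0.50 with T5 (0.0217). KIF1B, a vesicle motor, had a like course with T4 and T5, from 8.64 with DMSO through 12.2 and 12.6 at 0.5 µM to 3.12 and 2.42 at 20 µM.

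CENPQ went the other way round. Its FPKM was 11.5 with DMSO, 18.8, 17.0, 10.6, 9.47 and 8.55 with CPT, 7.78, 3.56, 3.57, 5.77 and 9.02 with T4, and 4.96, 3.06, 3.25, 4.61 and 7.26 with T5. With T4 and T5 the lowest levels were at 2 and 5 µM, and the level at 20 µM was higher again, at 78.6% and 63.2% of DMSO, whereas the CPT libraries of 0.5 and 2 µM read above DMSO. A straight dose line does not describe such a course, and none of the 3 was called. By a description set after the values were seen (at most 66.7% of DMSO at the lowest dose point and at least 1.5-fold above that point at 20 µM), CENPB, CENPQ, KIF14, KIF21A and KIF3C dipped and regained signal with both T4 and T5, CENPP did so with T4 and CENPK with CPT. The regain was partial: at 20 µM T5, CENPB was at 87.9% of DMSO but KIF21A at 24.2% and KIF14 at 30.4%. The same description held for 7.95% of all genes tested with CPT, 10.3% with T4 and 10.8% with T5, so these numbers are near those over all genes.

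Inner centromere genes that rose were CENPH and CENPK. CENPH, a subunit beside CENPI, CENPK and CENPM, read 23.4 with DMSO, 20.0003, 28.9, 30.3, 32.7 and 32.7 with CPT, 22.9, 25.8, 28.5, 31.2 and 33.4 with T4, and 20.3, 26.4, 28.7, 40.0 and 38.4 with T5. It was above DMSO at 2 µM and higher for all 3 compounds, and its log2 change was 0.64 ± 0.17 (adjusted p = 0.0271), 0.55 ± 0.11 (0.00756) and 0.90 ± 0.18 (0.00786). CENPK rose with T5 (0.49 ± 0.16, adjusted p = 0.043). It read 24.6 with DMSO, 11.7, 21.8, 22.3, 24.0 and 22.4 with CPT, 21.8, 21.7, 25.1, 31.4 and 31.6 with T4, and 21.3, 22.4, 25.4, 30.5 and 32.3 with T5, and its change was 0.35 with CPT and 0.48 with T4, neither of them called. Their neighbour CENPI went down to 2.50 from 11.9 at 0.5 µM CPT, but its line passed with T4 alone (-1.28, adjusted p = 0.0461).

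Others did not pass with any compound. CENPM, the inner centromere gene with the highest mean, read 40.7 with DMSO, 46.1, 41.2, 36.7, 36.2 and 35.2 with CPT, 39.3, 35.5, 33.9, 41.9 and 33.8 with T4, and 36.2, 33.9, 36.8, 33.9 and 33.7 with T5. Its 16 values lay within 33.7 to 46.1, and its log2 change was -0.32 ± 0.13, -0.16 ± 0.15 and -0.21 ± 0.11 (adjusted p = 0.0839, 0.41 and 0.144), with 95% intervals from -0.62 to -0.01, from -0.52 to 0.20 and from -0.46 to 0.05. CENPT and CENPW, histone-fold subunits that hold the outer kinetochore, had changes of 0.33, -0.17 and 0.26, and of 0.00, 0.27 and 0.31. CENPU read 18.7 to 20.1 over DMSO and CPT and 23.2 to 28.3 over T4 and T5, and no dose line of it passed. CENPB, which binds the CENP-B box of alpha satellite DNA, and CENPP were not called either. CENPP was nonetheless at 31.4% to 46.6% of DMSO over the CPT libraries.

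CENPF and CENPV are centromere proteins outside that network. CENPF is a large coiled-coil protein of the nuclear envelope and outer kinetochore, and it read 13.5 with DMSO, 10.1, 3.66, 2.13, 1.94 and 2.34 with CPT, 15.3, 9.92, 6.82, 3.92 and 4.16 with T4, and 14.0, 6.39, 3.26, 2.38 and 1.90 with T5. It read at or above DMSO at 0.5 µM T4 and T5 and was lower at each further dose to 10 µM with all 3 compounds. The log2 change was -2.44 ± 0.43 (adjusted p = 0.0117), -1.85 ± 0.28 (0.00317) and -2.67 ± 0.28 (0.00127). CENPV had an FPKM of 3.26 with DMSO, 7.75, 10.6, 10.3, 7.81 and 6.84 with CPT, 3.17, 5.22, 6.25, 5.36 and 4.15 with T4, and 4.21, 6.78, 6.85, 6.55 and 5.51 with T5. It was above DMSO in 14 of the 15 treated libraries, peaked at 2 or 5 µM and came down again, and no dose line of it passed (adjusted p = 0.32, 0.217 and 0.0994).

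Transport kinesins moved in both directions. Of 12, 5 fell and 1 rose with CPT, 2 fell and 1 rose with T4, and 3 fell and 1 rose with T5, against 25.8%, 32.4% and 34.5% of all genes that fell. With T4 and T5 those counts are no larger a share than over all genes. The median log2 changes were -0.58, -0.37 and -0.38, and turned to -0.13, 0.27 and 0.29 with medians set equal. In those fits 1 fell and 2 rose with CPT, 0 fell and 3 rose with T4, and 1 fell and 4 rose with T5. KIF5B, the ubiquitous conventional kinesin heavy chain, had the highest mean of all 44 genes. Its FPKM was 62.2 with DMSO, 46.7, 29.2, 26.1, 29.9 and 30.2 with CPT, 80.7, 86.6, 67.6, 59.1 and 63.0 with T4, and 85.9, 71.9, 57.0, 60.2 and 62.2 with T5. From 2 µM up the CPT libraries were between 42.0% and 48.5% of DMSO, while T4 and T5 read above DMSO at 0.5 and 2 µM and close to it at 20 µM. KIF5B had a log2 change of -1.04 ± 0.30 (adjusted p = 0.0334) with CPT, -0.22 ± 0.22 (0.451) with T4 and -0.27 ± 0.21 (0.306) with T5.

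KIFC2, a motor of the C-terminal kinesins, was the 1 transport kinesin whose line rose. It read 5.40 with DMSO, 6.22, 8.81, 11.4, 11.0 and 11.9 with CPT, 4.07, 5.94, 7.96, 9.61 and 10.6 with T4, and 4.47, 7.67, 9.44, 11.5 and 13.0 with T5. It was highest at 20 µM with each compound, about 2-fold over DMSO, and the log2 change was 1.08 ± 0.19 (adjusted p = 0.0115), 1.11 ± 0.24 (0.0116) and 1.34 ± 0.21 (0.00356). KIFC3, of the same class, fell with T4 (-0.49) and T5 (-0.82), and the T4 sign turned with medians set equal. KIF1B fell with all 3 compounds (-2.19, -1.46 and -1.79). KIF3A, a motor of cilia, fell with CPT (-0.91) and T5 (-0.79), and KIF3C and KIF21A passed with CPT alone (-0.86 and -1.44). KIF21A was nonetheless at or below 47.2% of DMSO in each T4 library and 31.2% in each T5 library. KIF3C went as low as 35.5% with T4 and 37.5% with T5. KIF1A, KIF1C, KIF3B, KIF5C and KIF13A passed with none. With CPT, however, KIF13A was at 31.0% to 41.2% of DMSO and KIF5C at 34.5% to 50.9%, low from the first dose on. Both were called lower with CPT than with T4 and T5 at matched doses (-0.70 and -0.34). KIF1C, a motor of vesicles, lay between 17.4 and 20.3 in all 16 libraries.

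Of the 3 other kinesins, KIF2A, which takes apart microtubule ends at spindle poles and in neurons, fell most. Its FPKM was 25.3 with DMSO, 15.1, 5.52, 3.46, 3.37 and 3.31 with CPT, 14.9, 6.90, 4.94, 4.64 and 5.84 with T4, and 10.1, 4.19, 3.05, 3.40 and 3.80 with T5. All treated libraries were below DMSO, and T5 was below T4 at each dose. The log2 change was -2.76 ± 0.44 (adjusted p = 0.0106), -2.11 ± 0.44 (0.00925) and -2.40 ± 0.59 (0.0151). KIF7, a Hedgehog regulator of the cilium tip, fell with changes of -0.90, -0.99 and -0.97. KIF26A, an atypical kinesin with the mean closest above the level of choice (1.45), read 1.42 with DMSO, 2.87, 2.27, 1.90, 1.72 and 2.22 with CPT, 1.83, 1.23, 0.865, 0.826 and 0.972 with T4, and 1.57, 1.06, 0.789, 0.884 and 0.795 with T5. It was above DMSO in all 5 CPT libraries, and its line passed with T5 (-0.54 ± 0.15, adjusted p = 0.0246), where the sign turned with medians set equal. KIF21A was next above the level of choice, with a mean of 1.52, and just below it lay CENPJ, a centriole protein (0.952), and KIF16B, an endosome motor (0.923).

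**Figure D3:**
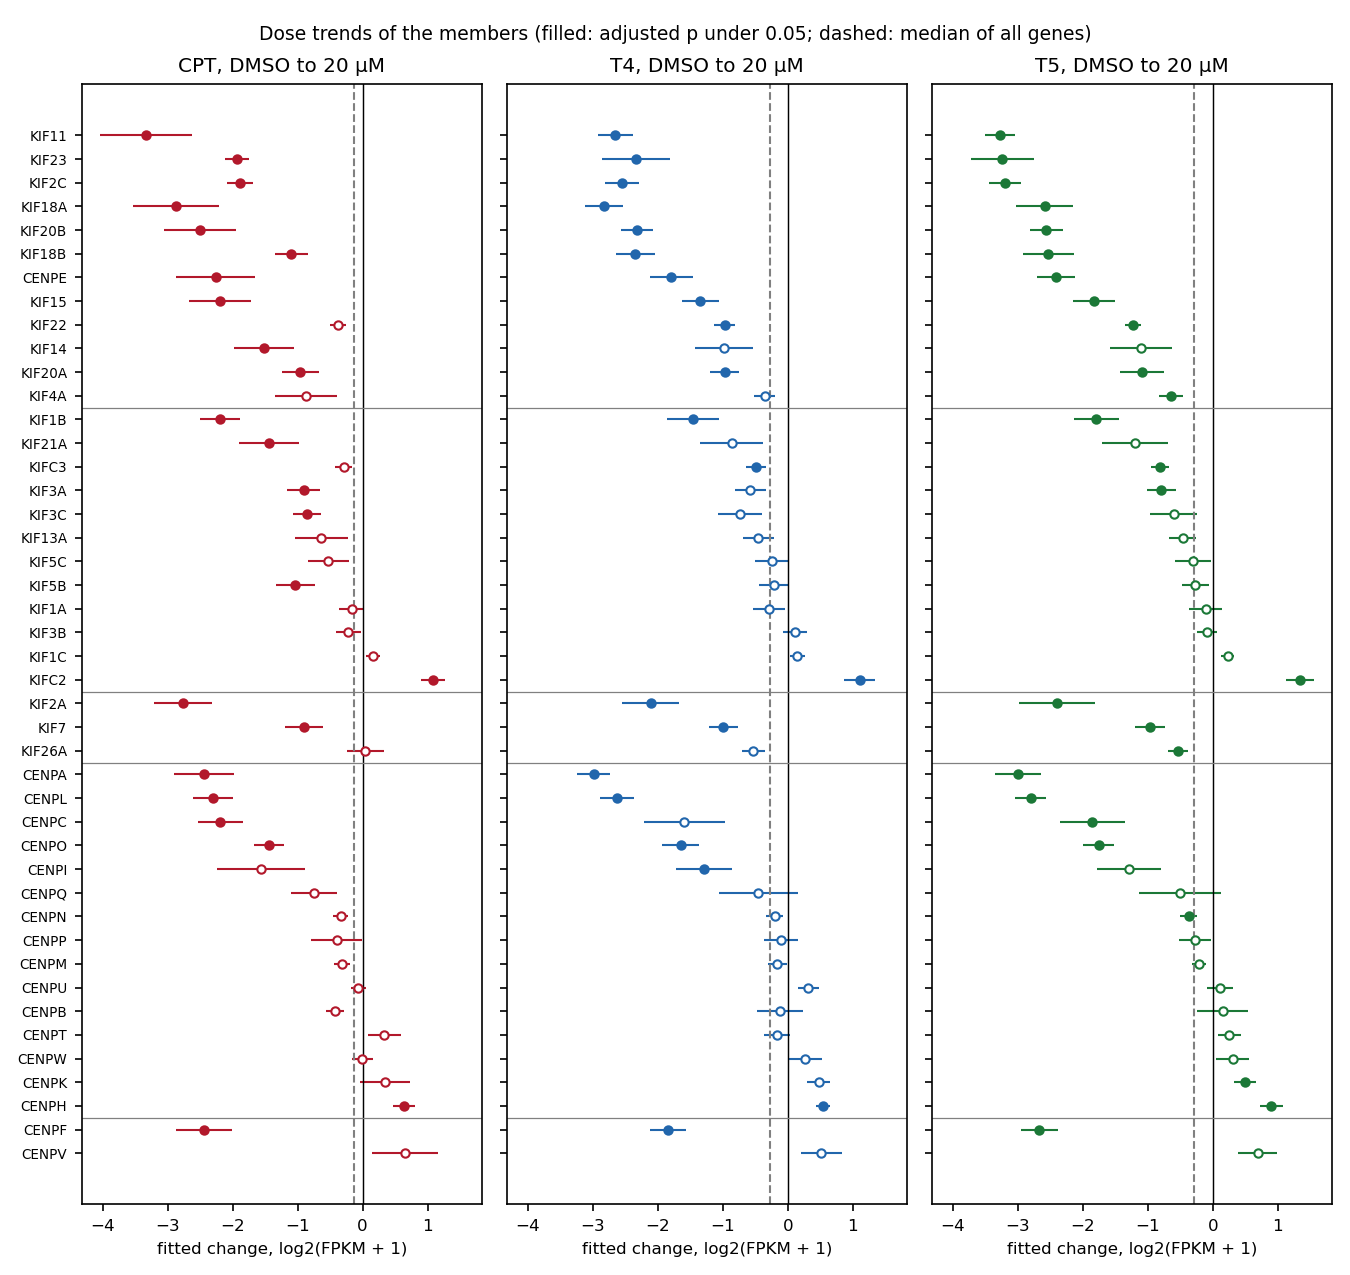
Fitted log2 change from 0 to 20 µM (x axis) of each of the 44 genes (y axis, by role) for CPT, T4 and T5, with bars of 1 SE and filled points where the adjusted p was below 0.05. Spindle kinesins lie left of 0 throughout, and KIFC2, CENPH and CENPK have filled points right of 0.

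When DMSO was left out of the fits, which then shared no sample, the dose lines of T4 and T5 had a Spearman correlation of 0.958 across the 44 genes and 0.945 across the 10600. For CPT it was 0.799 with T4 and 0.792 with T5 across the 44 genes, and 0.721 and 0.736 across all. These are descriptions across genes, which are not independent, over 5 libraries each.

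T5 was compared with T4 at the 5 shared doses, with dose as a block and without DMSO. Of the 44 genes, 22 were lower with T5 and 2 higher, beside 26.5% lower and 6.05% higher of all genes tested, and with medians set equal 15 were lower and 6 higher. With no filter on low values 13 were lower. The shares of all genes under these alternatives are not given here, so the shifts are not read as particular to these genes. The median difference was -0.19, against -0.06 over all genes. Of the 12 spindle kinesins, 11 were lower with T5 and 0 higher, and 9 of 12 with medians set equal. The largest differences were those of CENPF (-0.59 ± 0.11, adjusted p = 0.00946), KIF2C (-0.55 ± 0.06, 0.00422) and KIF11 (-0.52 ± 0.07, 0.00527), each with SE over 10 libraries. KIF18A was the spindle kinesin that did not pass (-0.30 ± 0.10, 95% interval -0.55 to -0.06, adjusted p = 0.0622). Higher with T5 were CENPV (0.27 ± 0.05, adjusted p = 0.00909) and KIFC2 (0.23 ± 0.04, 0.0101).

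Counted without a fit, T5 lay below T4 at each of the 5 doses for 24 of the 44 genes and 10 of the 12 spindle kinesins, beside 31.3% of all genes tested. All called differences between T5 and T4 were smaller than the dose changes of the same genes. CENPK (0.00 ± 0.03, 95% interval -0.07 to 0.07) and CENPU (0.00 ± 0.05, -0.12 to 0.12) were close to 0.

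**Figure D4:**
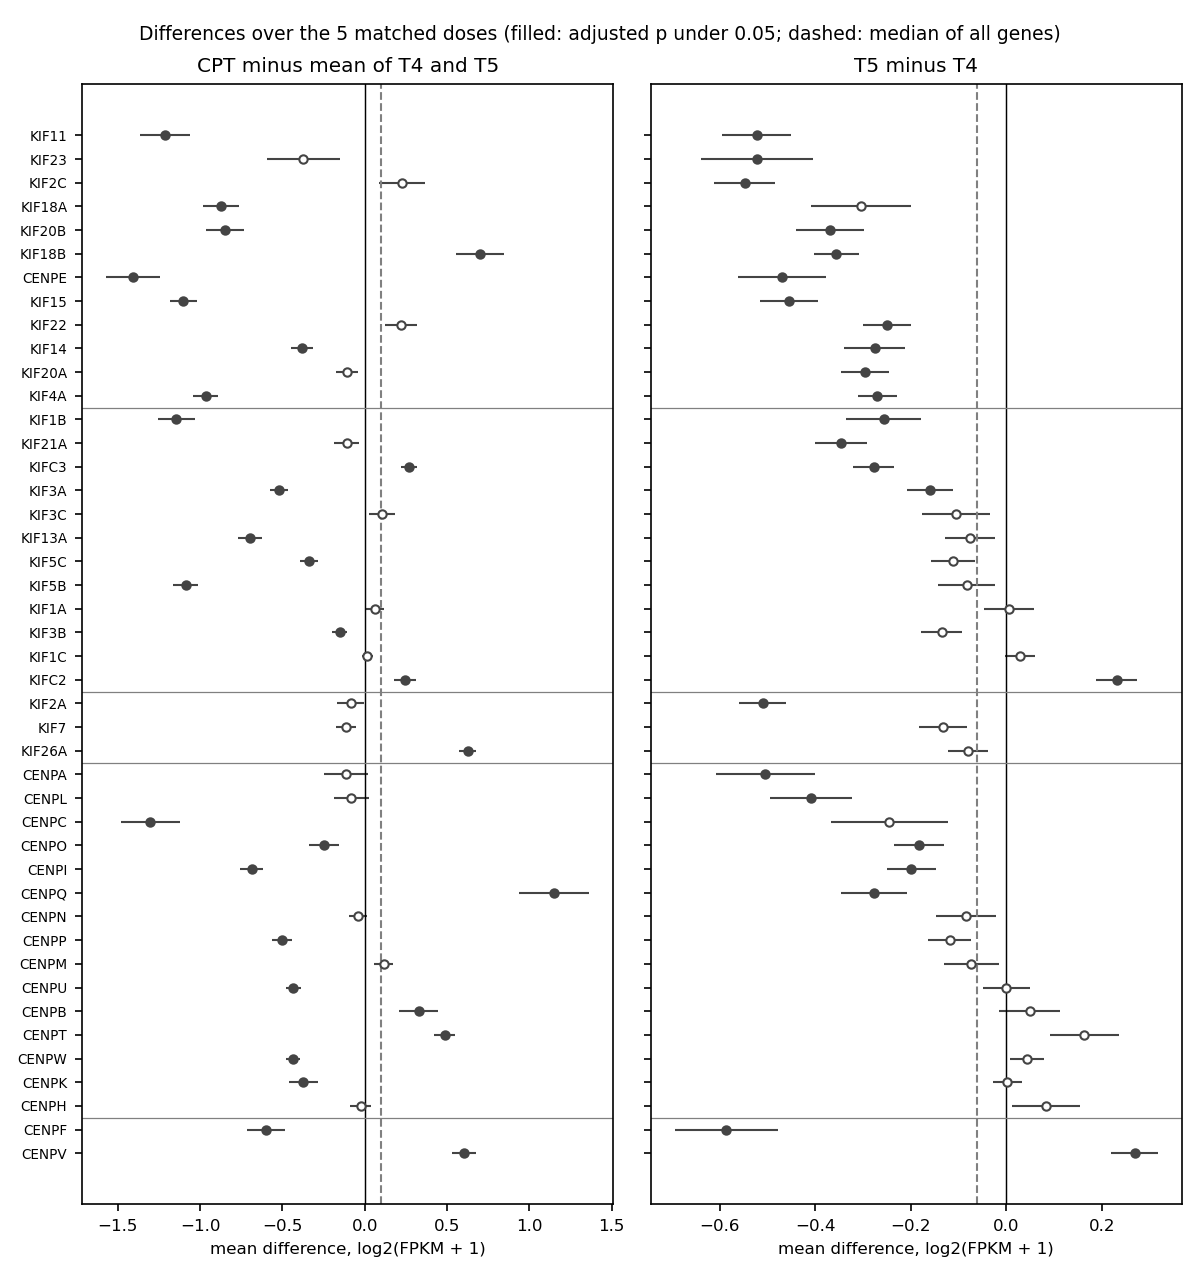
Mean log2 difference at matched doses of each of the 44 genes: T5 minus T4 in one panel and CPT minus the mean of T4 and T5 in the other, with bars of 1 SE and filled points where the adjusted p was below 0.05. CENPE lies farthest left and CENPQ farthest right for CPT, and most points for T5 minus T4 lie left of 0.

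CPT was compared with the mean of T4 and T5 at the same doses over the 15 treated libraries. Of the 44 genes, 21 were lower and 8 higher with CPT, beside 31% lower and 44% higher of all genes tested, and the median difference was -0.13 against 0.10 over all genes. With medians set equal, 28 were lower and 6 higher. The shares of all genes with that centring are not given here, so this shift is not read as one of these genes. CENPE (-1.41 ± 0.16, adjusted p = 1.71e-05), CENPC (-1.30 ± 0.18, 5.9e-05) and KIF11 (-1.21 ± 0.15, 3.08e-05) lay farthest below T4 and T5. In FPKM, CENPE at 2 µM read 0.67 with CPT, 7.75 with T4 and 4.95 with T5. KIF5B (-1.09), KIF1B (-1.14), KIF15 (-1.10) and KIF4A (-0.97) were also lower with CPT.

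Higher with CPT were CENPQ (1.15 ± 0.21, adjusted p = 0.000498), KIF18B (0.70 ± 0.15, 0.00118) and KIF26A (0.62 ± 0.05, 1.55e-06), followed by CENPV (0.60) and CENPT (0.49). KIF18B was the 1 spindle kinesin of the 12 that was higher with CPT, and 7 were lower. It read 15.5 with DMSO, 10.6, 7.65, 6.53, 6.36 and 6.71 with CPT, 12.2, 6.92, 3.59, 2.63 and 3.06 with T4, and 9.37, 4.89, 2.54, 1.71 and 2.50 with T5. From 2 µM up its CPT level stayed above that of T4 and T5. CPT lay below both T4 and T5 at each of the 5 doses for 17 of the 44 genes, beside 23.9% of all genes tested. It lay above both at each dose for 3 of the 44, and the share of all genes that did so was not computed. Several falling genes did not differ past the threshold, among them CENPA (-0.11 ± 0.13, 95% interval -0.41 to 0.18), CENPL (-0.08 ± 0.11, -0.32 to 0.15) and KIF2A (-0.09 ± 0.08, -0.27 to 0.10). All 29 calls kept their sign, and 27 to 29 stayed called, in each alternative setting tried.

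Genes that work with these proteins were counted from 3 lists. Of 26 kinetochore and centromere-loading genes, 13 fell with CPT, 12 with T4 and 16 with T5, and 0 rose, against 25.8%, 32.4% and 34.5% of all genes that fell. With medians set equal, 10, 10 and 9 fell and 3, 8 and 6 rose. HJURP, the chaperone that places CENPA, read 18.7 with DMSO, 12.4, 8.39, 5.27, 4.62 and 4.61 with CPT, 17.3, 11.5, 5.92, 2.24 and 1.17 with T4, and 14.9, 7.70, 3.28, 1.96 and 0.787 with T5. Each treated library was below DMSO, and the fitted log2 change with T5 was -3.60 ± 0.22 (adjusted p = 0.000865), beside -3.00 ± 0.35 for CENPA.

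Of 14 kinesin partners that reached the mean level, out of 15 listed, 7 fell with CPT, 6 with T4 and 7 with T5, and 1 rose with CPT, against the same shares of all genes. After centring on the medians, 6, 3 and 5 fell and 2, 4 and 4 rose. CKAP5, a microtubule polymerase, read 28.4 with DMSO, 12.8, 4.75, 3.99, 4.20 and 4.34 with CPT, 27.4, 16.2, 11.6, 9.41 and 9.37 with T4, and 22.6, 11.5, 7.86, 7.47 and 8.31 with T5, and TPX2, a spindle assembly factor that binds KIF11 and Aurora A, read 50.3 with DMSO, 24.1, 14.3, 10.8, 10.3 and 10.5 with CPT, 55.1, 52.2, 36.7, 31.5 and 26.9 with T4, and 54.1, 38.2, 26.0, 20.8 and 18.2 with T5. The CPT changes were -2.41 ± 0.56 and -2.09 ± 0.39 (adjusted p = 0.0185 and 0.0126). KLC2, a light chain of conventional kinesin, rose with CPT (0.94 ± 0.20, adjusted p = 0.0154) from 17.9 with DMSO to 35.3 at 20 µM.

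Dynein and dynactin, the motor complex that moves the opposite way, gave counts in both directions, as genes at large did. Of 22 genes, out of 23 listed, 9 fell and 5 rose with CPT, 6 fell and 4 rose with T4, and 6 fell and 5 rose with T5, against 25.8%, 32.4% and 34.5% of all genes that fell and 17.9%, 14.5% and 18.2% that rose. After centring, 6, 3 and 5 fell and 8, 11 and 11 rose. PAFAH1B1, the dynein regulator LIS1, read 15.3 with DMSO, 5.63, 1.75, 1.75, 1.89 and 2.14 with CPT, 11.0, 4.63, 2.95, 2.82 and 2.98 with T4, and 7.49, 3.49, 2.47, 2.10 and 2.09 with T5. Its largest called fall was that with T5 (-2.39 ± 0.39, adjusted p = 0.00393). DYNC1LI1, a light intermediate chain, had its largest called fall with CPT (-2.11 ± 0.29, adjusted p = 0.0105). It read 25.9 with DMSO and, at 20 µM, 6.33 with CPT, 9.68 with T4 and 10.3 with T5. DYNLL1, a dynein light chain, rose with CPT (0.98 ± 0.16, adjusted p = 0.0108), from 137 with DMSO to 269.6 at 20 µM. It also reached 198 at 2 µM T4 and 239 at 5 µM T5, and was back at 137 and 146 at 20 µM.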

How the data were processed

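RNA of U2OS cells was sequenced in 16 libraries, 1 per condition. The deposited matrix gives FPKM per gene, computed by the authors. The submitters' processing notes name the tools GSNAP and Cufflinks and the builds hg19 and GRCh37, without roles or versions. How polyadenylated RNA was selected, the strand and the annotation: not given in the sources used here. Left out were 2 inner header lines, 1 incomplete line and 220 repeated lines. Total depth is unknown, since FPKM divides it out. Depth relative to DMSO was estimated as the commonest ratio of values below 0.2 FPKM in both libraries.

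Models were fitted by limma 3.58.1 (R 4.3.3, mean-variance trend on) to log2(FPKM + 1) of 10600 genes with mean FPKM of at least 1, 2-sided, Benjamini-Hochberg adjusted at 0.05. A fold on this scale understates the change of low genes. Dose lines were fitted on log2(1 + dose / 0.5 µM) for DMSO and the 5 libraries of a compound, and scaled to 0 to 20 µM. Comparisons at matched doses had dose as a block. The fits were tested on simulated data over 10600 genes, with normal noise of SD 0.15 on log2 in every gene and exactly straight dose lines or constant offsets. They recovered 98% to 100% of 100 genes changed by 1 and 100% of 100 changed by 2, and 2.91% to 6.98% of calls were false. Real courses were often curved and scattered more, with an SE of 0.71 for KIF11 with CPT. These rates therefore show that the fits run correctly and are not error rates of the calls made here. Plots were drawn with matplotlib 3.10.9 under Python 3.11.15.

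The genes, role groups and partner and marker lists were chosen with earlier results of these data known. Named in full were, for each dose line, the 4 largest falls and 4 largest rises called, for each matched comparison the 3 largest each way, the highest mean of each role, and KIF11, CENPA, CENPE and CENPF, with the 2 largest falls and 1 largest rise of each partner list, of which 1 gene is not reported here; other genes are named beside counts. CENPBD1 was left out as a pseudogene, as current RefSeq lists it. Alternatives were a pseudocount of 0.1, no filter, median centring, quantile normalization, a linear dose scale, treated libraries alone, and leaving out each dose.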

Additional observations from a re-analysis of the deposited data

How the results depend on the processing

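Among the values of named genes under the alternatives, 432 kept their side of the threshold, 57 kept the direction and lost the call, 4 gained it and 2 reversed. A turn of sign was counted as a reversal only where the main fit or the alternative was called. The 432 can therefore include uncalled values whose sign turned. Both reversals were those of CENPM with median centring, to 0.49 with T4 (adjusted p = 0.0389, 0.41 uncentred) and to 0.47 with T5 (adjusted p = 0.0279, 0.144 uncentred). With median centring the count of the 44 genes that rose went from 2 to 10 with T4 and from 3 to 11 with T5, those higher with T5 than T4 from 2 to 6, and those that fell with T5 from 23 to 15. Quantile normalization gave 6 rising with T4, 8 rising with T5 and 15 falling with T5. Called genes whose sign turned with centring were KIFC3 with T4 and CENPN, KIF26A and KIF4A with T5, and with quantile normalization KIF26A with T5. On a linear dose scale 0 genes fell or rose with CPT, 11 fell and 0 rose with T4, and 2 fell and 0 rose with T5. Over all genes the linear scale called 0 in either direction with CPT. Without DMSO, 14 fell with CPT and 5 rose with T5. With no filter on low values, which tests 20739 genes, 13 were lower with T5 than T4. Leaving out each dose in turn gave 0 to 22 falling and 0 to 2 rising with CPT, and 1 to 2 rising with T4. Shares of all genes are not given here for quantile normalization, the fits without DMSO, those with no filter, or most fits without a dose. The shifts in those settings are therefore not read as particular to these genes. The cause of the shifts was not tested. Genes near an FPKM of 1 are limited in precision by an unknown depth.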

Other observations

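The 17 genes of the same families whose mean FPKM was below 1 were not tested. Among them, CENPJ, a centriole protein, read 2.54 with DMSO, 1.94, 1.23, 0.740, 0.674 and 0.657 with CPT, 1.84, 1.10, 0.702, 0.368 and 0.243 with T4, and 1.54, 0.764, 0.443, 0.228 and 0.213 with T5. KIF16B, an endosome motor, read 2.15 with DMSO, 0.468, 0.114, 0.161, 0.153 and 0.139 with CPT, 2.42, 1.49, 0.954, 0.742 and 0.685 with T4, and 2.12, 1.17, 0.649, 0.649 and 0.718 with T5. KIF24, a kinesin of the mother centriole, read 2.70 with DMSO, 1.09, 0.435, 0.509, 0.591 and 0.678 with CPT, 1.27, 0.560, 0.464, 0.575 and 1.10 with T4, and 0.912, 0.409, 0.425, 0.328 and 0.435 with T5. Each of the 3 was below DMSO in all treated libraries but KIF16B at 0.5 µM T4. KIF9 stayed between 0.630 and 0.927 over the 16 libraries.

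CENPBD1, listed as a pseudogene by current RefSeq and as protein coding in GENCODE 29, read 3.02 with DMSO, 3.71, 5.14, 4.52, 3.82 and 3.35 with CPT, 1.61, 1.52, 1.28, 0.933 and 0.803 with T4, and 1.64, 1.64, 1.36, 1.09 and 0.714 with T5. All 5 CPT libraries were above DMSO and all 10 libraries of T4 and T5 below it. In the same limma fit over 10600 genes its log2 change from 0 to 20 µM was 0.10 ± 0.28 (adjusted p = 0.796) with CPT, -1.01 ± 0.19 (adjusted p = 0.00639) with T4 and -1.02 ± 0.19 (adjusted p = 0.00634) with T5, and CPT was higher than T4 and T5 at matched doses by 1.18 ± 0.07 (adjusted p = 2.25e-07). CENPBD1P1, a pseudogene of the same family, read 4.71 with DMSO, 7.23, 8.93, 8.17, 7.15 and 7.28 with CPT, 4.58, 3.32, 3.39, 4.26 and 4.40 with T4, and 3.85, 3.31, 3.39, 4.02 and 4.89 with T5. Reads may be split between such copies.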
